A study of Mus musculus with 4 samples.

Results

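Crh, Crhbp, Ucn and Trh, 4 genes of stress peptide signalling, were followed through every neuronal cluster and every cell type of the mouse hindbrain. They were chosen by name, not by a rule on their levels, from the 32285 genes of the count matrices, with earlier results of these data known. The samples were 4 single-nucleus RNA-seq libraries from a hindbrain piece holding the area postrema and the nucleus of the solitary tract. The 2 control libraries are labelled WT, and the other 2 are from AgRP-Gq;POMC-Gi mice. Every mouse received the designer drug clozapine-N-oxide (CNO) at 3 mg per kg i.p., and tissue was taken after 1 h without food. The mice were male and female, between 12 and 20 weeks old and on a C57BL/6 background, and the sex per library is not stated. Mice of both groups carried 1 copy of each receptor allele, hM3DGq fl/- and hM4DGi fl/-. Controls had neither recombinase (Cre-/- and Dre-/-), whereas the other group was heterozygous for AgRP-IRES-Cre and for POMC-Dre. There, Cre driven by AgRP switched on the activating receptor hM3DGq, and Dre driven by POMC switched on the inhibitory receptor hM4DGi. The cell bodies of AgRP and POMC neurons lie mainly in the arcuate nucleus of the hypothalamus, which was not in the dissected piece, although a small POMC population is also known in the solitary tract. Mice of one condition were pooled (2 per group), and the sources do not say how the pool relates to the 2 libraries of a group. The p-values measure the spread between libraries. Whether that spread is technical or between mice in controls is not known, and those 2 libraries differed in the share of some neuronal clusters. The 2 AgRP-Gq;POMC-Gi libraries differed in their mix of sexes. Both are given below.

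Corticotropin-releasing hormone (CRH, from Crh) starts the pituitary and adrenal stress response and also acts as a transmitter within the brain, through the receptors CRHR1 and CRHR2. Urocortin (Ucn) is a related ligand of both receptors, and the secreted protein encoded by Crhbp binds both peptides and limits their access to receptors. Thyrotropin-releasing hormone (TRH, from Trh) drives the pituitary and thyroid axis, and in the hindbrain it is known from raphe neurons that also make serotonin and project to vagal and spinal motor neurons.

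The 4 genes are protein-coding, lie on the minus strand of GRCm38 and overlap no other annotated gene (GENCODE M21). Crh (ENSMUSG00000049796) lies at chr3:19693401-19695396 with 2 exons, and Ucn (ENSMUSG00000038676) at chr5:31138063-31138829 with 3 exons. Crhbp (ENSMUSG00000021680) spans chr13:95431371-95444924 with 10 exons, and Trh (ENSMUSG00000005892) spans chr6:92242061-92244650 with 3 exons. Start-site sequence was available for 3 of the 4 members, from RefSeq on GRCm38.p6, and it is shown because the cAMP response element is a known control site of stress peptide genes. The 100 bases before each RefSeq start read as follows, 5′ to 3′ on the minus strand, with TGACGTCA (the cAMP response element) and TATAA in capitals, each searched on both strands.
Ucn, chr5:31138896-31138995: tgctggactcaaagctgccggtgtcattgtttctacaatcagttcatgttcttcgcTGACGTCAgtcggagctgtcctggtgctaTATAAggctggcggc
Crhbp, chr13:95444832-95444931: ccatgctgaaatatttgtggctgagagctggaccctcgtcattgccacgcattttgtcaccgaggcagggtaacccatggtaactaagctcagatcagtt
Trh, chr6:92244651-92244750: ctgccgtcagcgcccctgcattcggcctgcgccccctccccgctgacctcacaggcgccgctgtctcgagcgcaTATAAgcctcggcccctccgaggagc
The RefSeq start of Crhbp lies inside the GENCODE gene, so most of its window does too, whereas that of Ucn lies before the GENCODE start and that of Trh coincides with it. Within 250 bases before the start, Ucn held 1 complete TGACGTCA, first base 44 bases before the start, while Crhbp and Trh held 0. The shorter letters TGACG occurred once each in Crhbp and Trh and 2 times in Ucn, both inside its complete element. Of 32851 promoters of this length, 1.55% held TGACGTCA, 17.8% held TGACG and 22.8% held TATAA. Ucn and Trh each had 1 TATAA, 15 and 26 bases before the start, and Crhbp had 2, 243 and 234 bases before it.

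The matrices held 44303 barcodes, of which the authors kept 39461 nuclei, between 9723 and 10051 per library, with 48904976 to 53089402 unique molecular identifiers (UMIs) per library. Neurons numbered 12539 in 134 clusters, with a median of 8704 UMIs, and made up 25.4% and 27.2% of control nuclei against 38.0% and 36.5% of AgRP-Gq;POMC-Gi nuclei. Levels are given as CPM, the gene's UMIs per library scaled to all UMIs of the same nuclei. Library AgRP-Gq;POMC-Gi 2 stood apart in Xist, the RNA of the inactive X chromosome, with 16.2 CPM in neurons against 319 to 541 CPM in the other libraries. AgRP-Gq;POMC-Gi 1 was at 541 CPM, so the libraries of this group did not hold the same mix of male and female nuclei. Barcodes shared by a pair of libraries numbered 168. Of the hypothalamic markers checked in neurons, Oxt, Avp and Sim1 were near 0 (0.250, 0.0326 and 0.129 CPM), Pomc was at 3.11 CPM, and Agrp was at 88.0 CPM with a UMI in 50.8% of neurons. Summed, these 5 markers were at 91.6 CPM in neurons, 22.3 in oligodendrocytes and 45.5 in choroid plexus, so Agrp UMIs were not taken to mark AgRP neurons. The source of these UMIs and whether such neurons carried a receptor were not tested.

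All 4 members were rare among hindbrain neurons. Crh gave 482 UMIs in 278 of 12539 neurons, a share of 2.22% (95% Clopper-Pearson interval 1.97 to 2.49%). Crhbp gave 109 UMIs in 80 neurons (0.638%, 0.506 to 0.793%) and Trh 68 UMIs in 36 neurons (0.287%, 0.201 to 0.397%). Ucn gave 8 UMIs in 8 neurons (0.0638%, 0.0275 to 0.126%). These intervals cover counting error only. Oligodendrocytes, which are not known to make these peptides, had a UMI of Crh in 0.529%, of Crhbp in 0.149%, of Trh in 0.137% and of Ucn in 0.0238% of 16816 nuclei, at a median of 2460 UMIs.

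A neuronal cluster was taken to bear a member where at least 10% of its nuclei had a UMI and such nuclei came from at least 3 libraries. By this rule 4 clusters bore Crh, 1 bore Crhbp, 1 bore Trh and 0 bore Ucn. With nuclei of at least 2000 UMIs thinned to that depth, cluster 72 alone met the rule for Crh (20.6%). For Crhbp 0 clusters met it (7.58% in cluster 103). The 4 Crh clusters held 2.59% of neurons and 61.8% of neuronal Crh UMIs. The Crhbp cluster held 0.750% of neurons and 43.1% of Crhbp UMIs, and the Trh cluster 0.343% of neurons and 61.8% of Trh UMIs. Outside these clusters the mean CPM over libraries was no higher than in oligodendrocytes. Mean Crh outside was 1.54 ± 0.220 CPM (SD, n = 4 libraries) against 2.05 ± 0.431 in oligodendrocytes, and mean Trh was 0.206 ± 0.0805 against 0.449 ± 0.324 CPM. Mean Crhbp was 0.527 ± 0.234 outside against 0.573 ± 0.357 CPM in oligodendrocytes. Nuclei under 2000 UMIs could not be thinned to that depth. This left 12052 of 12214 neurons outside for Crh and 11400 of 16816 oligodendrocytes. Thinned, the shares with a Crh UMI were 0.318% outside the bearing clusters and 0.328% in oligodendrocytes. Those with a Trh UMI were 0.0547% and 0.0902%, and those with a Crhbp UMI 0.135% and 0.116%. Without thinning, the shares outside were the higher, 1.21% against 0.529% for Crh, 0.458% against 0.149% for Crhbp and 0.208% against 0.137% for Trh. Median depths were 8607.5 to 8704 UMIs outside and 2460 in oligodendrocytes. Whether neurons outside were at background was not tested.

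**Figure D1:**
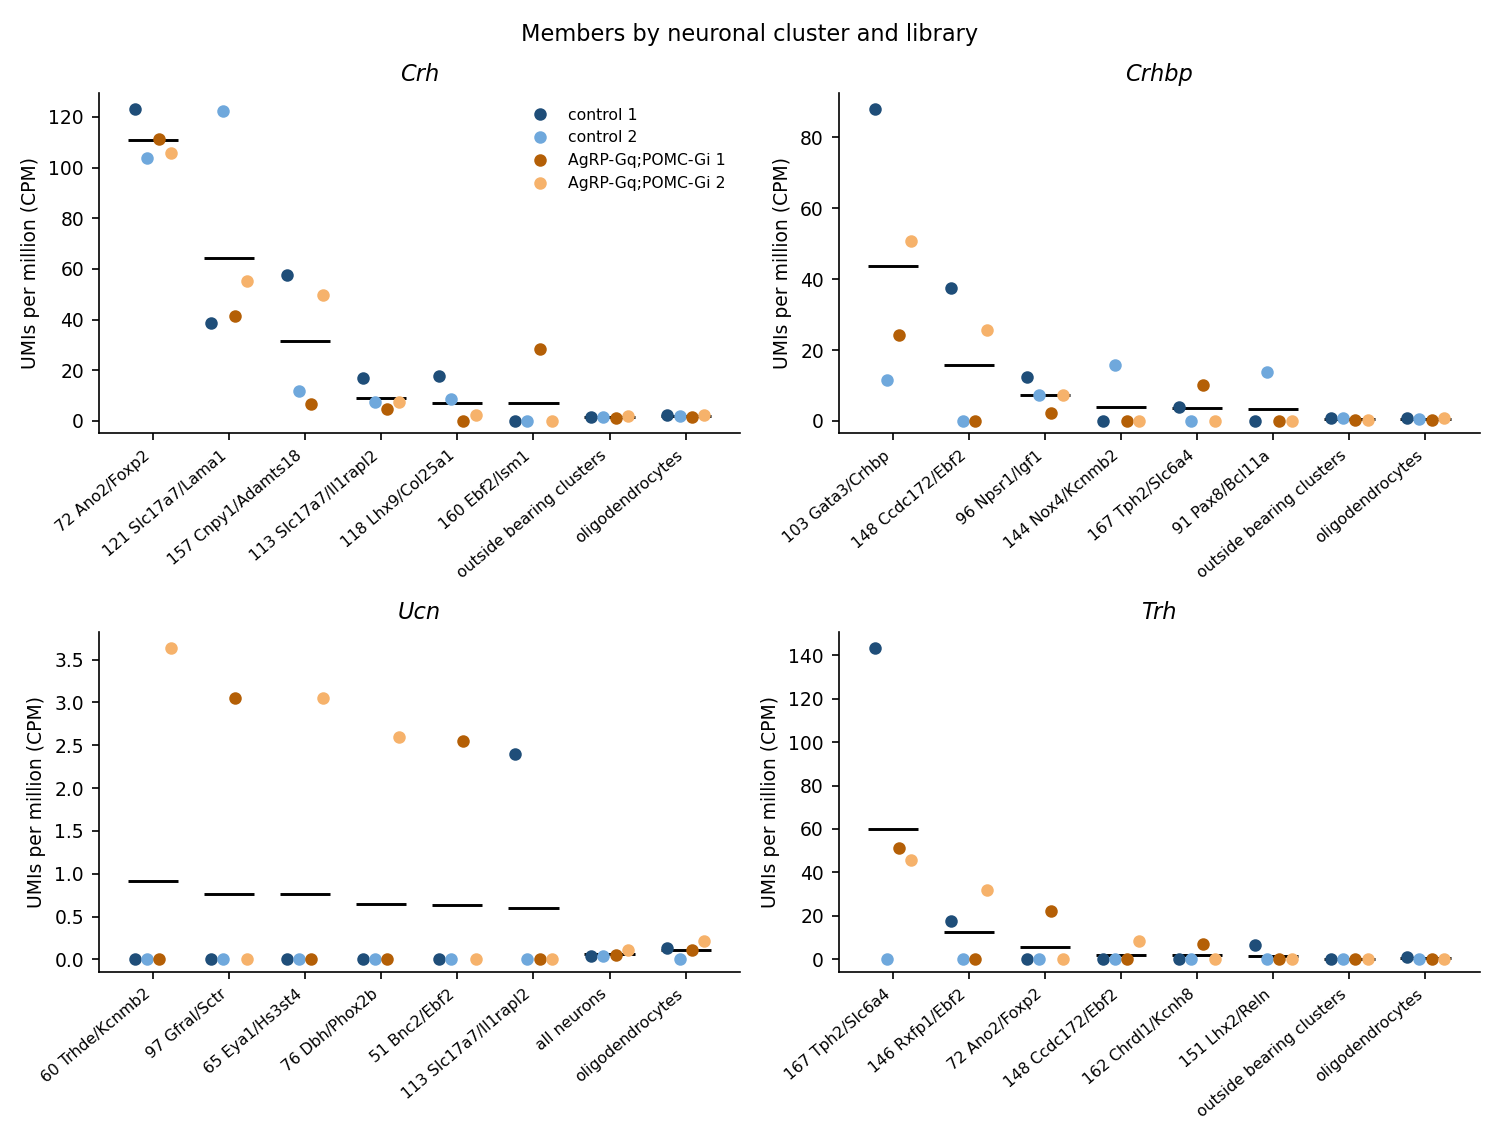
Level of each member (CPM) in the neuronal clusters with its highest means among those with at least 5 nuclei in each library, in neurons outside the bearing clusters (for Ucn, all neurons) and in oligodendrocytes, with 1 point per library and a bar at their mean. Crh in cluster 72 lies between 104 and 123 CPM in the 4 libraries, while other leading clusters spread more widely.

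None of the 14 cell types, neurons as a whole included, met the same 10% minimum for any member. Mean Crh was 4.01 ± 2.18 CPM in neurons, and 4 types with few UMIs had higher means, from 4.32 ± 3.76 in mural cells (7 UMIs) and 6.80 ± 3.71 in endothelial cells (9 UMIs) to types with 1 UMI, all with ranges over libraries that overlapped those of neurons. Astrocytes had 40 Crh UMIs and 2.44 ± 1.21 CPM, and tanycyte-like cells had 0 UMIs in 202 nuclei. Crhbp had its highest mean in neurons, 0.918 ± 0.511 CPM, followed by astrocytes at 0.709 ± 0.864, and Trh was at 0.583 ± 0.659 CPM in neurons with 2 UMIs each in endothelial cells and Tmem119.Immune cells, whose means were higher. Ucn was at 0.0608 ± 0.0362 CPM in neurons and higher in mean in 4 types with 1 to 5 UMIs each, such as oligodendrocytes at 0.113 ± 0.0889, with overlapping ranges.

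Crh was highest in cluster 72 (Ano2/Foxp2), in which 82 of 127 nuclei had a Crh UMI (64.6%, 55.6 to 72.8%). Its level was 123 CPM in control 1, 104 in control 2, 111 in AgRP-Gq;POMC-Gi 1 and 106 in AgRP-Gq;POMC-Gi 2, a mean of 111 ± 8.66 CPM (SD, n = 4). The 4 libraries were thus close in level, and the groups overlapped, but the values of control 2 and AgRP-Gq;POMC-Gi 1 rested on 5 Crh UMIs each. The number of nuclei was not close. Control 1 gave 76 nuclei of this cluster and AgRP-Gq;POMC-Gi 2 gave 39, while the other libraries gave 6 each. Cluster 72 was 3.08% of neurons in control 1 (2.43 to 3.84%), 0.219% in control 2, 0.162% in AgRP-Gq;POMC-Gi 1 and 1.07% in AgRP-Gq;POMC-Gi 2. The 2 libraries high in this cluster were thus 1 of each group, as were the 2 low ones.

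**Figure D2:**
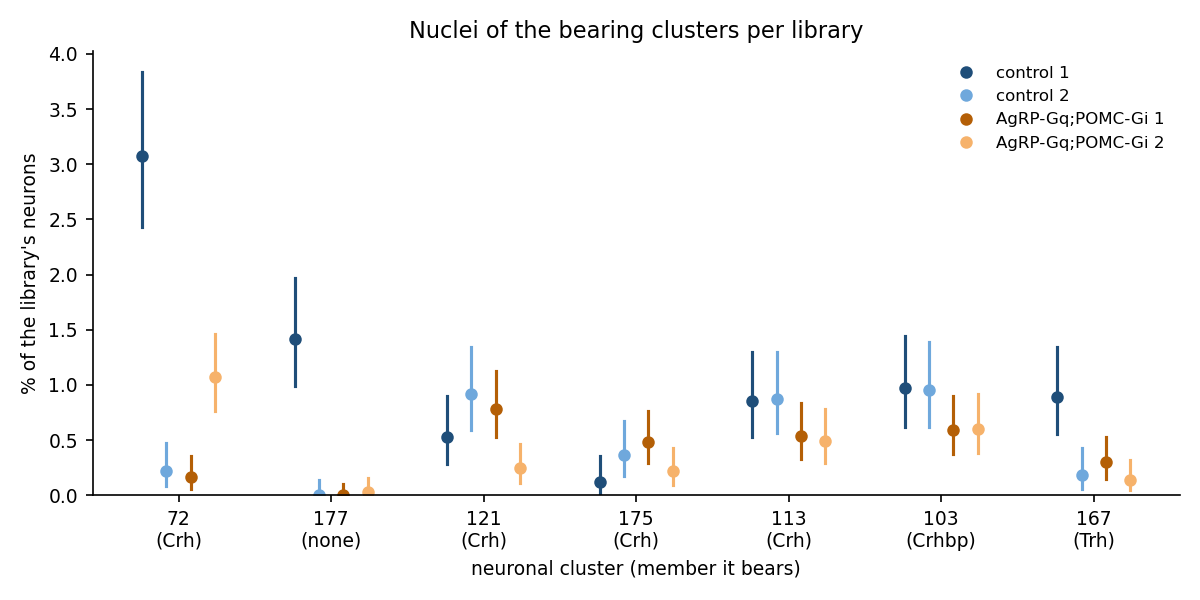
Share of each library's neurons (%) that fell in the clusters bearing Crh, Crhbp or Trh, and in cluster 177, which bore none, with 95% Clopper-Pearson intervals. Cluster 72 ranges from 0.162% to 3.08% of neurons, whereas the Crhbp cluster 103 stays between 0.595% and 0.972%.

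The source of Crh UMIs therefore differed from library to library. Cluster 72 supplied 70.5% of the neuronal Crh UMIs of control 1 and 41.8% of those of AgRP-Gq;POMC-Gi 2, but 5.62% in control 2 and 7.25% in AgRP-Gq;POMC-Gi 1. Cluster 121 gave more than cluster 72 in those 2 libraries, 40 UMIs against 5 in control 2 (44.9% of its Crh UMIs, with 26 of the 40 in 1 nucleus) and 14 against 5 in AgRP-Gq;POMC-Gi 1. Neurons outside the bearing clusters and cluster 177 gave 34, 38, 44 and 60 Crh UMIs in the same order of libraries, control 1 first. Scaled to all UMIs of these neurons, with cluster 177 included, the levels were 1.67, 1.43, 1.28 and 1.76 CPM, so the groups overlapped.

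**Figure D3:**
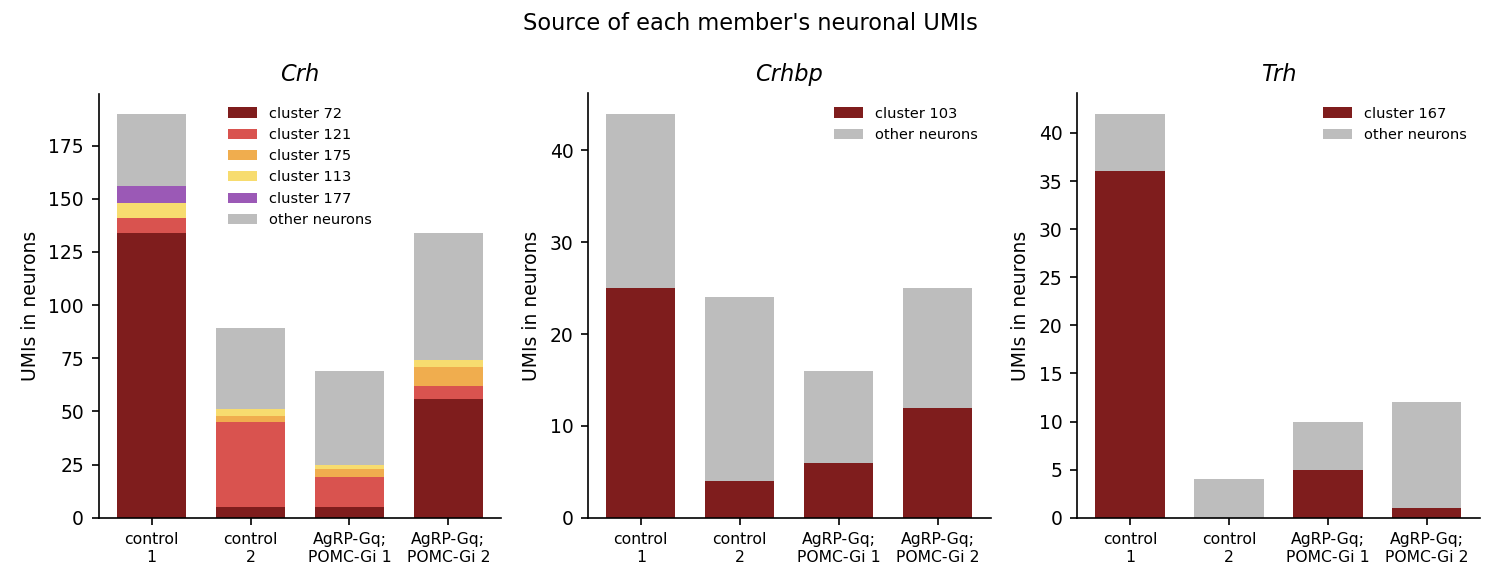
Neuronal UMIs of each member per library, split by the cluster they came from, as stacked bars starting at 0. Crh UMIs of control 1 and AgRP-Gq;POMC-Gi 2 come largely from cluster 72, and 36 of the 42 Trh UMIs of control 1 come from cluster 167.

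Cluster 72 expressed Slc17a6, the vesicular glutamate transporter VGLUT2, at 133 ± 29.8 CPM against 76.0 in all neurons. Gad1 and Gad2, the GABA synthesis enzymes, were each seen in 5 of its 127 nuclei. Foxp2, a transcription factor of several hindbrain nuclei, was at 1989 ± 367 CPM against 71.6 in all neurons, and Pou4f1, a transcription factor of several brainstem and sensory neurons, at 122 ± 49.3 against 6.76. Pcsk2, a convertase that cuts prohormones, was at 1021 ± 198 CPM against 445 in all neurons, and Pam, which amidates peptides such as CRH, at 314 ± 84.1 against 278. Slc1a2, a glutamate transporter best known from astrocytes, was detected in 96.9% of the nuclei at 857 ± 203 CPM, against 18.7 in cluster 121. All 3 astrocyte markers were detected, and their summed level was between 665 and 1069 CPM, nearly all of it Slc1a2, while Aqp4 and Gja1 were seen in 3 and 7 nuclei and were each at 0 in 2 libraries. Ttr, the leading gene of choroid plexus, was between 0 and 2325 CPM in cluster 72, at 0 in 2 libraries. The part of these genes in the Crh level was not tested.

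The other Crh clusters had lower mean levels. Cluster 121 (Slc17a7/Lama1) had a Crh UMI in 28 of 76 nuclei (36.8%, 26.1 to 48.7%), with 38.6 and 122 CPM in the controls and 41.3 and 55.4 CPM in AgRP-Gq;POMC-Gi mice, a mean of 64.4 ± 39.4. The high control 2 value rested on 1 nucleus with 26 Crh UMIs, and without it control 2 was at 47.0 CPM and the mean at 45.6 ± 7.41. Cluster 121 expressed Slc17a7, the vesicular glutamate transporter VGLUT1, at 136 ± 40.5 CPM against 6.84 in all neurons, and Nr3c2, the mineralocorticoid receptor, at 401 ± 77.5. In cluster 175 (Lama1/Sntg2), 9 of 39 nuclei had a Crh UMI (23.1%), at 0 and 22.2 CPM in the controls and 12.7 and 76.7 CPM in the other group. Cluster 157 (Cnpy1/Adamts18) had 7 Crh UMIs in 4 of 51 nuclei (7.84%), under the minimum for bearing the gene. Cluster 113 (Slc17a7/Il1rapl2) had 11 of 83 nuclei (13.3%) and lower levels, 16.8 and 7.40 against 4.60 and 7.53 CPM. The ranges of clusters 72 and 121 overlapped, as did those of 121 and 175 and of 175 and 113, whereas those of 72 and 113 did not. The overlap of 72 and 121 rested on the nucleus with 26 UMIs, without which cluster 121 reached 55.4 CPM at most.

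Single nuclei carried several Crh UMIs mainly in these clusters. In cluster 72, 50 nuclei had at least 2 Crh UMIs, 12 had at least 5 and the highest had 12. Among the 148 other neurons with Crh, 125 had exactly 1 UMI, 23 had at least 2 and the highest had 7. Among the 89 oligodendrocytes with Crh, 84 had exactly 1, 5 had at least 2 and the highest had 3.

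**Figure D4:**
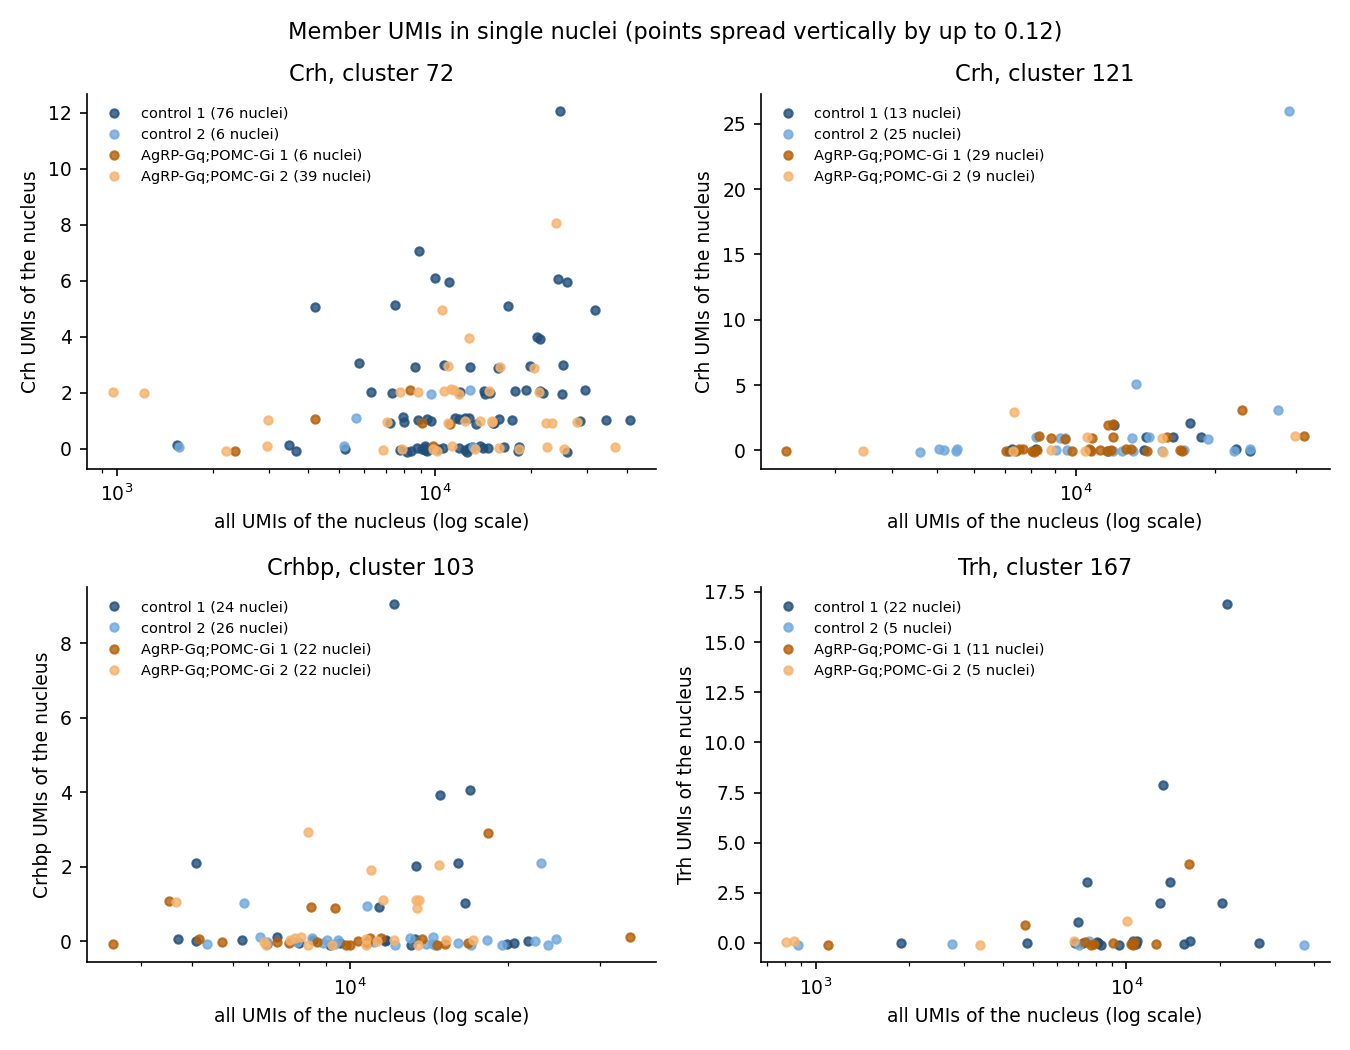
UMIs of the member in single nuclei (vertical axis, points spread by up to 0.12) against all UMIs of the nucleus (horizontal log axis) for Crh in clusters 72 and 121, Crhbp in cluster 103 and Trh in cluster 167, coloured by library. The highest nuclei hold 12, 26, 9 and 17 UMIs, and the single point at 26 in cluster 121 belongs to control 2.

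Crh did not differ detectably between the groups in the 3 of its clusters that had enough nuclei for a test, 72, 121 and 113. Group differences were tested with the quasi-likelihood test of edgeR and Benjamini-Hochberg adjustment over all genes tested in a cluster. In the 13 clusters in which a member reached a UMI in 5% of nuclei, 76 of 153206 gene and cluster pairs were called (0.0496%), and of the 13 pairs with a member 0 were called, with 1 at an unadjusted p under 0.05. In clusters 72, 121, 113, 103 and 167 no gene at all was called by DESeq2, among 11404 to 13242 genes tested per cluster. The absence of members from its calls there is therefore not specific to them. Shares of genes called that follow are those of edgeR. Cluster 72, in which 0.0331% of genes were called, gave a log2 difference of AgRP-Gq;POMC-Gi minus control of -0.16 (SE 0.47, edgeR adjusted p = 1.00). For cluster 113, where 0% of genes were called, the difference was -0.91 (SE 0.76, edgeR adjusted p = 0.941), and it was -0.20 without control 1 and -1.39 without control 2. Cluster 121, with 0.0398% called, gave -0.93 (SE 0.43, edgeR adjusted p = 0.992), and this was the pair under 0.05. Without the nucleus of 26 UMIs, its group means were 42.8 ± 5.94 in controls and 48.3 ± 9.97 CPM in the other group, so the direction turned. Leaving out a library also turned it, to 0.29 in cluster 121 without control 2 and to 0.30 in cluster 72 without control 1. The group differences of clusters 72 and 121 differed by 0.72 (SE 0.65, edgeR adjusted p = 1.00). This fit took the sums of both clusters as separate samples and ignored that they came from the same libraries.

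Ucn was close to the limit of detection. Its 8 neuronal UMIs lay in 8 nuclei of 8 clusters, 1 in each, and were split 1, 1, 2 and 4 over control 1, control 2, AgRP-Gq;POMC-Gi 1 and AgRP-Gq;POMC-Gi 2. The level was 0.0372 and 0.0365 CPM in controls and 0.0562 and 0.113 CPM in the other group. The groups did not overlap, as was so for 11.8% of the 27523 genes with a UMI in neurons in that direction, and 1 UMI more or less would change the order. The cluster with the highest mean, 159 (Casr/Slc6a2), owed it to 1 UMI in control 2. Thinned to 2000 UMIs, 0.0151% of neurons and 0.0146% of oligodendrocytes of at least that depth had a Ucn UMI.

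Crhbp was led by cluster 103 (Gata3/Crhbp), which the authors named after the gene itself, so that its rank there is partly fixed by the naming. A Crhbp UMI was found in 23 of its 94 nuclei (24.5%, 16.2 to 34.4%). The level was 88.0 CPM in control 1, 11.5 in control 2, 24.2 in AgRP-Gq;POMC-Gi 1 and 50.7 in AgRP-Gq;POMC-Gi 2, a mean of 43.6 ± 33.8. The controls were thus both the highest and the lowest, and the groups overlapped. Each library gave between 22 and 26 nuclei of this cluster. The highest nucleus held 9 UMIs, and without it control 1 was at 58.8 CPM. Clusters 148 (Ccdc172/Ebf2) and 96 (Npsr1/Igf1) followed at 15.8 and 7.28 CPM, each with under 10% of nuclei positive and with ranges that overlapped that of cluster 103.

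The Crhbp cluster expressed genes of inhibitory neurons, while Slc17a6 was seen in 3 of its 94 nuclei. Slc6a5, the glycine transporter of glycinergic neurons, was at 241 ± 70.2 CPM and Gad2, a GABA synthesis enzyme, at 195 ± 27.9. Gata3, a transcription factor of inhibitory hindbrain and spinal neurons, was at 70.1 ± 11.5 CPM, and Penk, the enkephalin precursor, at 76.0 ± 31.9. Of the 23 nuclei with Crhbp, 22 had a UMI of Slc6a5 and 22 of Gad2, against 56 and 52 of the 71 without it, at median depths of 12131 and 10756 UMIs. The group difference of Crhbp in cluster 103 was -0.30 (log2, SE 0.60, edgeR adjusted p = 0.997), with 0% of 12446 genes called there. It was 1.67 without control 1 and 0.09 without AgRP-Gq;POMC-Gi 1. Without the nucleus of 9 UMIs the group means were 35.2 ± 33.5 in controls and 37.5 ± 18.7 CPM in the other group, so the direction turned.

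Trh was led by cluster 167 (Tph2/Slc6a4), a small cluster with the genes of serotonin neurons. A Trh UMI was found in 10 of 43 nuclei (23.3%, 11.8 to 38.6%). Control 1 was at 143 CPM from 22 nuclei, control 2 at 0 from 5 nuclei, AgRP-Gq;POMC-Gi 1 at 51.3 from 11 and AgRP-Gq;POMC-Gi 2 at 45.7 from 5, a mean of 60.1 ± 60.1. Controls were again both the highest and the lowest, and 36 of the 42 UMIs came from control 1. One nucleus held 17 UMIs, and without it control 1 was at 82.7 CPM. At least 2 Trh UMIs were found in 7 nuclei of the cluster, whereas each of the 26 other neurons and 23 oligodendrocytes with Trh had exactly 1. The next cluster, 146 (Rxfp1/Ebf2), had 6 nuclei with 1 UMI each among 58, from control 1 and AgRP-Gq;POMC-Gi 2 alone, so it did not count as bearing Trh.

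All 3 serotonin markers were detected in cluster 167, at a summed level between 973 and 2799 CPM. Tph2, the enzyme that starts serotonin synthesis in neurons, was at 1341 ± 568 CPM and Slc6a4, the serotonin transporter, at 663 ± 314. Tac1, the substance P precursor, was at 129 ± 59.1 CPM and Pcsk1, a prohormone convertase, at 73.4 ± 64.0. Nuclei with Trh had Pcsk1 in 8 of 10 cases and nuclei without it in 9 of 33, while Tac1 was found in 6 of 10 and 16 of 33. The median depths were 12943.5 and 8066 UMIs, and the part of depth in this difference was not tested. Ttr ranged up to 1081 CPM in this cluster too. Trh in cluster 167 differed between groups by -1.11 (log2, SE 0.78, edgeR adjusted p = 0.993), where 0.00877% of genes were called. Without the nucleus of 17 UMIs the group means were 41.3 ± 58.5 in controls and 48.5 ± 3.92 CPM in the other group, so the direction turned. Without control 1 it turned too, with control 2 at 0 UMIs as the only control left.

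Over all neurons no member reached the detection minimum of 5% of nuclei, so levels are given without a call. In this fit edgeR called 0 of 12115 genes (0%), with 667 at an unadjusted p under 0.05, and DESeq2 called 10. Crh was at 7.07 and 3.24 CPM in controls against 1.94 and 3.80 CPM in the other group, and the groups overlapped. The log2 ratio of the group means was -0.85, and it was -0.03 outside the 4 bearing clusters. Trh was at 1.56 and 0.146 CPM in controls against 0.281 and 0.340 CPM, with a ratio of -1.46, and 0.29 outside cluster 167. For Crh and Trh the ratio was thus closer to 0 outside the bearing clusters. With no filter on genes, edgeR gave Crh over all neurons as -0.79, which was -0.13 without control 1 and -1.29 without AgRP-Gq;POMC-Gi 2. Without control 1, Trh over all neurons was higher in the AgRP-Gq;POMC-Gi libraries, at 1.13 (edgeR, no filter on genes). Crhbp was at 1.64 and 0.875 CPM in controls against 0.450 and 0.709 CPM in the other group, a ratio of -1.12, and the ratio was -1.15 outside cluster 103. Its groups did not overlap, as was so for 22.8% of genes in that direction. Nuclei other than neurons were also apart, at 0.879 and 0.792 CPM in controls against 0.129 and 0.505 CPM in the other group. These values rested on 20 and 17 against 2 and 9 UMIs, and the share of all genes apart in those nuclei was not counted. With no filter on genes, edgeR gave -1.05 for Crhbp (edgeR adjusted p = 0.867, unadjusted p under 0.05), and the adjusted p was 0.867 for each of the other members too, with 1 of 27523 genes called (0.00363%). In an exact permutation test 2 against 2 libraries cannot give a p below 0.33. In the other cell types, no member passed the filter in any of 12 types fitted.

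Crhr1, the TRH receptor gene Trhr and the TRH-degrading enzyme gene Trhde were borne by more clusters than any member, whereas Crhr2 was not. Crhr1 was borne by 52 of 134 neuronal clusters and detected in 11.5% of neurons, at 16.9 and 18.3 CPM in controls and at 14.0 and 16.5 CPM in the other group. Among the Crh clusters, 121 and 113 had Crhr1 at 55.7 ± 35.4 and 76.1 ± 25.6 CPM, whereas cluster 72 was at 1.63 ± 1.93 from 5 UMIs. Crhr2 was borne by clusters 97 (Gfral/Sctr) and 129 (Bnc2/Ebf2), at 21.2 ± 18.1 and 18.3 ± 19.6 CPM. Outside neurons Crhr2 was in 29.9% of 773 choroid plexus nuclei, nearly all of them from control 2 and AgRP-Gq;POMC-Gi 2. Trhr, the TRH receptor, was borne by 22 clusters, with the highest level in cluster 129 at 72.6 ± 34.6 CPM. Trhde, the enzyme on the cell surface that inactivates TRH, was borne by 110 clusters. Its highest level was 976 ± 318 CPM in cluster 142 (Cpne4/Trhde), which the authors named after the gene, and it was at 209 ± 89.9 CPM in the Crhbp cluster 103. The genes Ucn2, Ucn3, Trhr2 and Pgpep1 were borne by 0 clusters.

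**Figure D5:**
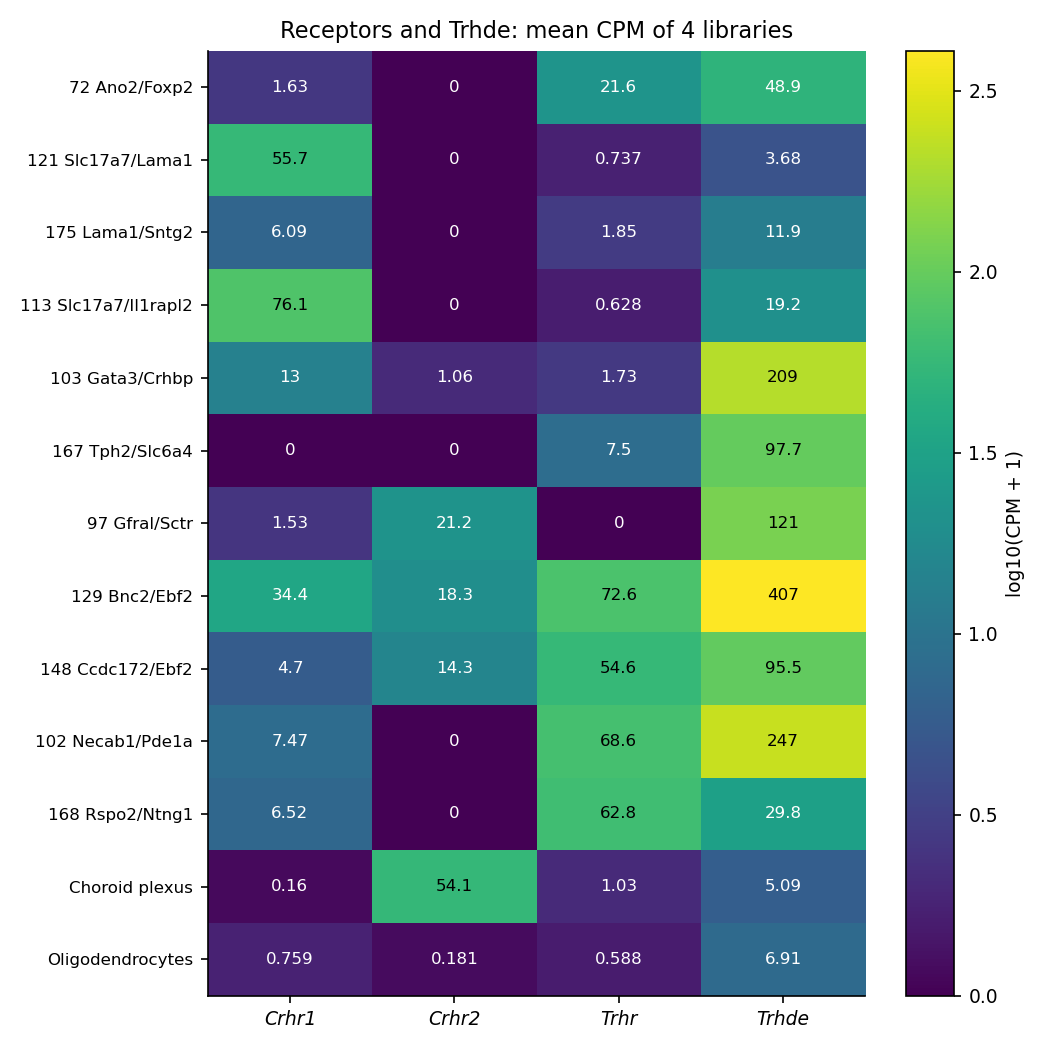
Mean level over the 4 libraries (CPM, printed in each cell, colour on a log10(CPM + 1) scale) of Crhr1, Crhr2, Trhr and Trhde in the clusters that bear Crh, Crhbp or Trh, in clusters high for Crhr2 or Trhr, in choroid plexus and in oligodendrocytes. Crhr1 is at 76.1 CPM in cluster 113 and 1.63 in cluster 72, and Crhr2 is at 54.1 in choroid plexus.

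A list of 74 genes around these peptides was followed in the same fit, and 42 of them were tested. None was called by edgeR in either direction (0% of all 12115 genes), and DESeq2 called 0. A larger share of the list than of all genes (5.51%) had an unadjusted p under 0.05 by edgeR, namely 6 of the 42. With a library left out, that number and the share of all genes both moved. Without AgRP-Gq;POMC-Gi 2 the list's share was no longer the larger. The median log2 difference of the 42 was 0.10. Of the CRH family only Crhr1 was tested, at -0.15 (SE 0.11, edgeR adjusted p = 0.815). Both TRH genes tested were among the 6, Trhr at 0.30 (SE 0.12) and Trhde at 0.27 (SE 0.10), each with an edgeR adjusted p of 0.810. Of 7 genes of hormone feedback tested, 1 was among the 6, Fkbp5, a glucocorticoid-induced cochaperone of the glucocorticoid receptor, at -0.50 (SE 0.11, edgeR adjusted p = 0.810). The other 3 were Cartpt at 0.79, Gal at 0.85 and Sec11c at -0.27, of 8 other peptide genes and 12 processing genes tested. The 6 transmitter genes and 6 transcription factors tested gave medians of 0.10 and 0.13 with 0 under 0.05.

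Of the 278 neurons with Crh, 80 with Crhbp and 36 with Trh, Crh and Crhbp were found together in 2, Crh and Trh in 1, Crhbp and Trh in 1, and Ucn with another member in 0. Across the 134 neuronal clusters, whose points share the 4 libraries, the genes most like Trh by Pearson correlation of log2(mean CPM + 1) were Slc6a4 (0.69), Tph2 (0.53), A430034D21Rik (0.52), Gm44947 (0.49) and Gm33474 (0.47), among 15423 genes. All 5 peaked in cluster 167, and by Spearman correlation they were between 0.03 (Gm44947) and 0.20 (Slc6a4, place 151 of all genes), so the likeness rested on that cluster. Those most like Crh were Gm11884 (0.48), Lmo7 (0.46), Rasal2 (0.44), Trim63 (0.41) and Naip6 (0.40), with Spearman correlations between 0.22 and 0.32. Without control 1, Lmo7 fell to place 94 and Rasal2 to place 140 of all genes. For Crhbp they were Gm41031 (0.32), Cdk15, Tnfrsf8 and Gm44724 (0.30 each) and Cebpz (0.29), with Spearman correlations between 0.10 and 0.33, which are low values in sparse counts, and Cebpz was at 0.08 without control 1. For Ucn, Rbm46os (0.75), Slc6a2 (0.73), Casr (0.67), Lrat (0.67) and Gm12827 (0.66) rested on the single UMI in cluster 159.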

How the data were processed

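The authors prepared nuclei sorted by DRAQ5 staining with the 10x Genomics 3′ kit, and mapped and counted reads with Cell Ranger 7.0.0 on GRCm38 (mm10). Whether intron reads were counted is not given in the sources used here. Per the labels and the study's methods, the deposited matrices hold UMI counts per gene and barcode, before the authors' own filter in Seurat 4.3.0 (at least 800 UMIs, at least 500 genes, at most 10% mitochondrial RNA) and doublet detection. In the deposited table of nuclei, the percent of mitochondrial counts of kept nuclei reached 9.94, and of 4842 barcodes left out 3937 passed these limits. Nuclei kept, clusters and cell types were taken from that table, and no doublet step was added. Its columns of immediate early gene scores hold the authors' own comparison and were not used. Clusters were built from expression in these nuclei, so a cluster was not tested against the rest.

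For each library, UMIs of a cluster or cell type were added up and scaled to that sum over all genes (CPM). Groups were compared in R 4.3.3 with edgeR 4.0.16 (quasi-likelihood test, TMM factors, Benjamini-Hochberg adjustment). Genes needed a UMI in 5% of nuclei or more, and clusters needed 5 nuclei or more from every library. The SE was the log2 difference divided by the root of F. The scripts were tested on simulated data. Alternatives were DESeq2 1.42.0, library size without TMM factors, no filter on genes, filterByExpr, a block for the replicate number, and leaving out single libraries. Combinations with no filter on genes and the level without the top nucleus were chosen after seeing the data. Python 3.11.15 with numpy 2.4.6, pandas 2.3.3, scipy 1.17.1 and matplotlib 3.10.9 made tables and figures.

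The members and gene lists were chosen with earlier results of these data known. Genes named were the members, the 5 genes most like each, and listed genes with at least 50 CPM in a leading cluster or on which a result turned. Leading clusters had at least 20 UMIs of the member and 5 nuclei in every library, and smaller ones were named after their values were seen. Of 32285 genes, 32158 were found in GENCODE M21 by identifier.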

Additional observations from a re-analysis of the deposited data

How the results depend on the processing

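Over all neurons the direction of Crh and Crhbp was the same under every alternative run, and that of Trh was not. Leaving out each library in turn moved the log2 difference of Crh between -1.29 and -0.13, of Crhbp between -1.43 and -0.53, of Ucn between 0.66 and 1.53 and of Trh between -2.25 and 1.13, with the values -0.13, -0.53 and 1.13 without control 1, -1.29 without AgRP-Gq;POMC-Gi 2 for Crh and 0.66 without AgRP-Gq;POMC-Gi 2. Outside the leading cluster Crh was at -0.31, Crhbp at -1.08 (edgeR adjusted p = 0.867), Ucn at 2.04 and Trh at 0.34. Alternatives that kept the detection minimum gave no value for the members here. In clusters, 38 of 43 alternatives kept direction and side of the threshold, including all 23 that used every library. The 5 that reversed each left out a library. Group means without the nucleus holding most UMIs of the member were not among the 43. They used every library and turned the direction in clusters 121, 103 and 167, but not in cluster 72. Crh ranged from -0.35 to 0.30 in cluster 72, the upper value without control 1, and from -1.41 to 0.29 in cluster 121, the upper value without control 2. Crhbp in cluster 103 ranged from -1.15 to 1.67, with 1.67 without control 1 and 0.09 without AgRP-Gq;POMC-Gi 1, and Trh in cluster 167 from -1.72 to 4.61, with 4.61 without control 1, a fitted value against 1 control library at 0 UMIs that is no bound. A lone library is assumed to vary like the other group. The cause was not tested.

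The replicate number as a block raised the genes called over neurons from 0 to 168 of 12115 and the pathway genes from 0 to 3 (Cartpt and Gal higher, Fkbp5 lower). With no filter on genes, the block gave Crh over neurons -0.75 (edgeR adjusted p = 0.0383, against 0.867 without it). In that fit 281 of 27523 genes were called (1.02%). Same-numbered libraries correlated at 0.184 in their deviations over 12115 genes, and nothing in the labels pairs them. DESeq2 called 10 genes, and leaving out a library gave 3, 17, 29 and 2017, the last without AgRP-Gq;POMC-Gi 2, which is the library low in Xist. Pathway genes called ranged from 0 to 8 with a library left out, 8 without AgRP-Gq;POMC-Gi 2, 3 without control 2 and 1 without AgRP-Gq;POMC-Gi 1.

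With a minimum of 5% of nuclei, 7 clusters bore Crh and 2 bore Crhbp, and after thinning to 2000 UMIs the numbers were 1 and 0. With a library left out the clusters bearing Crhbp ranged from 1 to 2 and those bearing Trh from 1 to 3, with 2 for Crhbp and 2 for Trh without AgRP-Gq;POMC-Gi 1 and 3 for Trh without control 2. The leading cluster of Ucn ranged from 60 to 159, with cluster 60 without control 2. Thinned shares of neurons with at least 2000 UMIs were 0.607% for Crh, 0.191% for Crhbp, 0.0151% for Ucn and 0.0895% for Trh. The 8 Ucn UMIs in neurons lay in 8 clusters, 1 in each, so no cluster met the rule for Ucn.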

Other observations

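Cluster 177 (Foxp2/Ano2) bears the same marker names as cluster 72 in reverse order, and 35 of its 36 nuclei came from control 1, at a median of 2707 UMIs. It held 8 Crh UMIs in 7 nuclei (19.4%, 8.19 to 36.0%), all from control 1, at 79.4 CPM there. It was 1.42% of the neurons of control 1, and 0 of 2736 neurons of control 2 and 0 of 3696 of AgRP-Gq;POMC-Gi 1 fell in it.

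In the 4842 barcodes left out by the authors, Crh gave 76 UMIs (2.56 ± 1.64 CPM, SD, n = 4) and Crhbp 35 (1.18 ± 0.470 CPM). Trh gave 13 (0.433 ± 0.680 CPM) and Ucn 2 (0.0712 ± 0.0829 CPM). Means over all neurons were 4.01, 0.918, 0.583 and 0.0608 CPM in the same order. The barcodes left out were thus lower in mean for Crh and Trh and higher for Crhbp and Ucn. In astrocytes all 12 Crhbp UMIs came from the control libraries (5 and 7), and the share of all genes with such a split was not counted. Among the 8462 genes that passed the filter in astrocytes, 10.3% had an unadjusted p under 0.05 by edgeR. With no filter on genes, edgeR gave an unadjusted p of 0.00252 for it with an adjusted p of 0.135, the single one of 25 pairs of a member and a cell type with an unadjusted p under 0.05.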
